A study of Mus musculus with 8 samples.

Results

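The 10 genes described here encode matrix metalloproteinases (MMPs) and tissue inhibitors of metalloproteinases (TIMPs): Mmp2, Mmp8, Mmp9, Mmp12, Mmp13, Mmp14, Mmp19, Timp1, Timp2 and Timp3. They were taken by symbol from a table of 55226 genes. RNA levels were measured by poly(A) RNA-seq in mouse bone marrow-derived macrophages, which had been differentiated from femoral marrow of C57BL/6 mice over 7 days in medium holding M-CSF (10 ng/ml, the macrophage growth factor) and 10% serum. The 4 groups were PtipcKO macrophages after 6 h of LPS, PtipcKO macrophages at 0 h, PtipWT macrophages after 6 h of LPS and PtipWT macrophages at 0 h, with 2 libraries each. LPS is a component of the bacterial outer membrane, used at 100 ng/ml. PTIP, the product of Paxip1, is a subunit of the MLL3/MLL4 complexes, which methylate histone H3 on lysine 4. PtipcKO (cKO) is the conditional knockout and PtipWT (WT) the wildtype genotype. For the Cre driver, the deleted exons and the age of the mice, the sources used here give nothing.

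MMPs are zinc-dependent proteases that are made as inactive proenzymes and cleave collagens, elastin and other matrix proteins once activated. TIMPs bind the active site of MMPs and block it, and TIMP2 also links membrane-bound MMP14 to the MMP2 proenzyme, which MMP14 then activates. Macrophages use these enzymes to move through tissue and to remodel it during inflammation, and many MMP genes are induced by inflammatory signals through promoter elements bound by AP-1, a dimer of Fos and Jun family proteins.

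Values are the authors' rlog values, a log2 scale in which low counts are shrunk towards the gene's mean, so differences of low genes are understated. The read depth of the libraries is unknown here. Of the 10 genes, 9 had a mean rlog of at least 3 and were tested as part of the 11543 genes that passed this minimum, while Timp3 (mean 2.13) was not tested. Differences were tested with limma over the 8 libraries and called at an adjusted p below 0.05. The series text speaks of biological replicates, but no label ties a replicate number to a mouse. The p-values therefore reflect only how far these libraries vary, which may be technical. All 8 macrophage markers checked (Adgre1, Csf1r, Cd68, Itgam, Fcgr1, Mertk, Lyz2 and Spi1) passed the minimum, with gene means of 8.13 to 18.7. Paxip1 had rlog values of 2.48 to 2.63 in the 4 cKO libraries and 3.82 to 4.5 in the 4 WT libraries. Its difference, cKO minus WT, was -1.36 after LPS (SE 0.18, limma adjusted p = 0.0156) and -1.99 at 0 h (SE 0.18, limma adjusted p = 0.00686). The groups did not overlap, and the Paxip1 call after LPS was lost without cKO LPS replicate 1 or 2 or WT LPS replicate 1 and the call at 0 h without cKO 0 h replicate 2 or WT 0 h replicate 1, or with the 4 libraries alone (adjusted p up to 0.150).

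Because Mmp13 gave the largest differences of the 10 genes between groups, the 250 bases before its annotated start are shown, beside those of its neighbour Mmp12, whose level moved little. Sequences are from RefSeq, build GRCm38.p6, and capitals mark an AP-1 motif (TGANTCA, which reads the same on both strands). The windows are chr9:7272264-7272513 (+ strand) for Mmp13, and chr9:7344147-7344396 and chr9:7347124-7347373 (+ strand) for the first and second annotated start of Mmp12.
Mmp13: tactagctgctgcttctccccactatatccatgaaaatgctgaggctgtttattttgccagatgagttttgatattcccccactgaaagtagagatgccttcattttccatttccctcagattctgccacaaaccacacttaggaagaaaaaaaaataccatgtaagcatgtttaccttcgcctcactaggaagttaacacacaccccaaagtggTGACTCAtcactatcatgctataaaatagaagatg
Mmp12 first start: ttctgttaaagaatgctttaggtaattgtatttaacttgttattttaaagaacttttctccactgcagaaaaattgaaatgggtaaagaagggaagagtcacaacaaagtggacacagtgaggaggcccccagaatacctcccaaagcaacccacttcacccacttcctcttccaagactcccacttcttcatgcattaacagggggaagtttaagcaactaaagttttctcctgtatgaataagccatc
Mmp12 second start: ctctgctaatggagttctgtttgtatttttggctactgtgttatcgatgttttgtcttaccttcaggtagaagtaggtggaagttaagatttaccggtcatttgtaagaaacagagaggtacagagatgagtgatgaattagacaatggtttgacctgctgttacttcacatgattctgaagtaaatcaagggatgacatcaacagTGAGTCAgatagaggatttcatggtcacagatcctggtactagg
The Mmp13 window held TGACTCA at positions -35 to -29 from the start, followed by TATAAA at -16 to -11. The window at the first Mmp12 start held no AP-1 match but an NF-kB consensus match at -129 to -120 and ACTTCCTC, the reverse complement of the ETS family motif GAGGAAGT, at -88 to -81. The window at the second Mmp12 start held TGAGTCA at -44 to -38, and that of Mmp8 held ACTTCCTC at -221 to -214. The windows of Mmp14, Timp1, Timp2 and Timp3 held none of these 4 motifs. TATAAA was searched on the coding strand and the others on both strands. Among 32851 mouse promoter windows of this length, 6.75% held the AP-1 motif, 5.0% the NF-kB consensus, 2.44% the ETS motif and 7.59% TATAAA. A match describes letters and not a bound site. Promoter entries were matched for 7 of the 10 genes (Mmp8, Mmp12, Mmp13, Mmp14, Timp1, Timp2 and Timp3), and Mmp2, Mmp9 and Mmp19 are named only.

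Per kilobase of exon, the order of the mean levels over 8 libraries (rlog minus log2 of the exon length in kb) was Mmp12, Mmp8, Mmp2, Mmp14, Mmp13, Mmp19, Timp2, Timp1, Mmp9 and Timp3. Mmp12, the macrophage elastase, stood at 12.54 ± 0.32 (SD over 8 libraries), rank 70 of the 11422 tested genes with a length. Mmp8, a collagenase best known from neutrophils, followed at 11.64 ± 0.57, rank 136. The gelatinase gene Mmp2 was at 8.45 ± 0.57 and the membrane-type protease gene Mmp14 at 7.66 ± 0.80, and their ranges overlapped (7.69 to 9.09 and 6.52 to 8.70). Mmp13, a collagenase, averaged 6.91 on this scale but spanned 4.23 to 11.04. By group, its rank was 2479 in cKO after LPS, 6526 in cKO at 0 h, 455 in WT after LPS and 4421 in WT at 0 h. The inhibitor genes Timp2 (5.48) and Timp1 (4.21) had lower means over the 8 libraries, and Timp3 was lowest at -0.90. By group, Timp2 was below Mmp13 after LPS (4.63 against 7.15 in cKO and 5.12 against 10.34 in WT) and above it at 0 h (5.95 against 4.43 in cKO and 6.21 against 5.71 in WT). Mmp19 averaged 5.71 ± 0.64 and Timp2 5.48 ± 0.69. These SDs include the differences between the 4 groups, so they cannot decide whether the levels of Mmp19 and Timp2 differ.

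**Figure D1:**
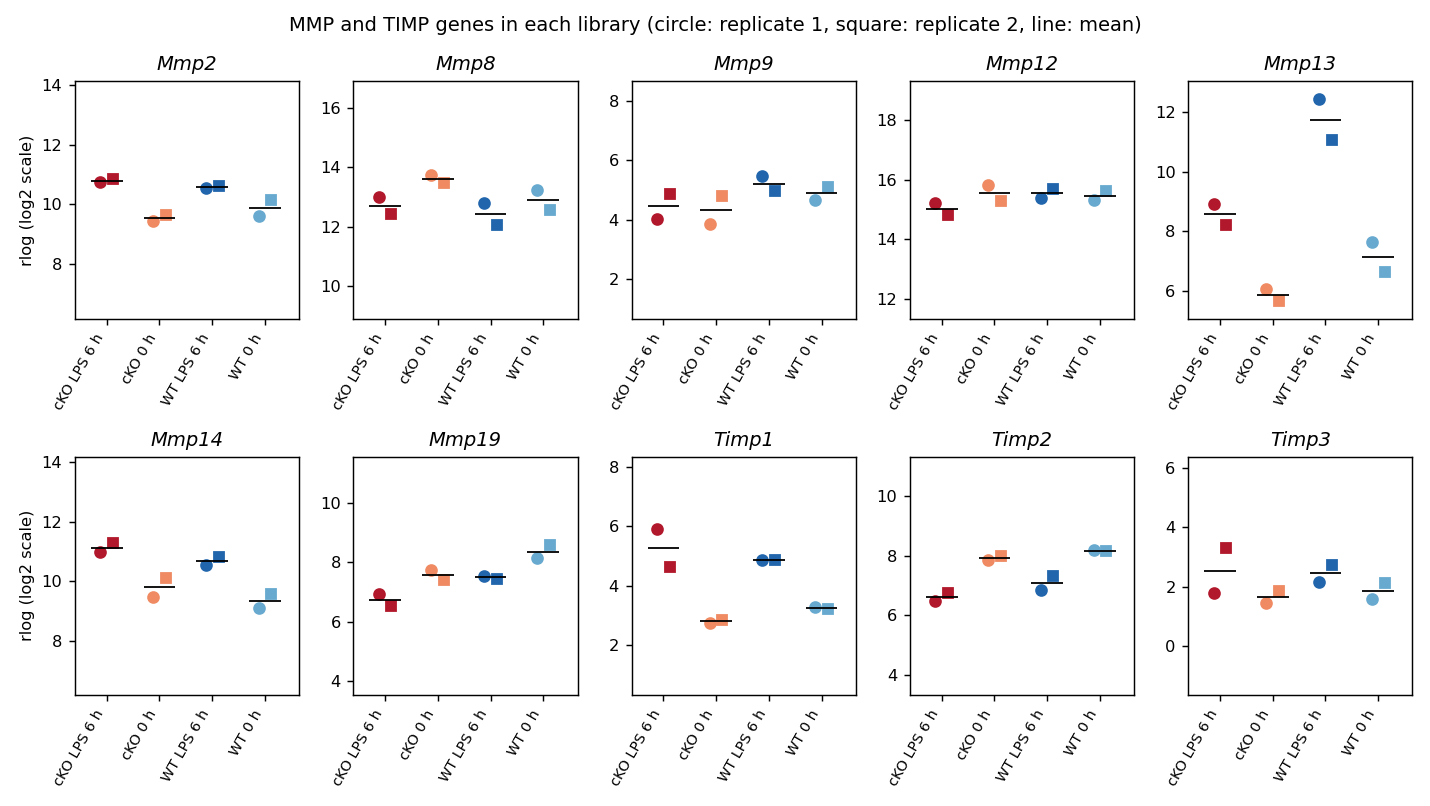
rlog values (log2) of the 10 genes in the 8 libraries, 1 panel per gene and each panel spanning 8 log2 units, with groups in the order cKO LPS, cKO 0 h, WT LPS and WT 0 h. Points are libraries and lines are group means; Mmp13 spans 5.65 to 12.46, and Mmp12 stays between 14.80 and 15.84.

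The first question was how 6 h of LPS changed these genes. In cKO macrophages the transcripts of Mmp13, Mmp2, Mmp14 and Timp1 rose and those of Mmp19 and Timp2 fell, which made 6 of 9 tested genes, against 37.0% of all 11543 genes tested in this comparison. In WT macrophages the same 6 genes changed in the same directions, against 42.2% of all genes tested. At the same threshold the authors' deposited table called 7 of the 10 genes in cKO, against 15.0% of its genes, and 6 in WT, against 15.3%. The median difference over the 9 genes was 0.11 in cKO and 0.34 in WT, and over all tested genes -0.02 in cKO and -0.01 in WT. Without cKO LPS replicate 1 or 2, the number of all genes called in cKO was 2845 or 2684, against 4275 with every library.

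Mmp13 encodes collagenase-3, which cleaves fibrillar collagens, and lies at chr9:7272514-7283331 on the + strand (GENCODE M21, GRCm38). Its rlog was 8.92 and 8.22 in the cKO LPS libraries, 6.05 and 5.65 in cKO at 0 h, 12.46 and 11.06 in WT LPS, and 7.64 and 6.63 in WT at 0 h. No 2 groups overlapped, and their order was, with the lowest first, cKO at 0 h, WT at 0 h, cKO LPS and WT LPS. The difference LPS minus 0 h was 2.72 in cKO (SE 0.48, limma adjusted p = 0.00269) and 4.63 in WT (SE 0.48, limma adjusted p = 0.000136). On the rlog scale these are 6.59-fold in cKO and 24.7-fold in WT. Both calls held under the 15 alternatives tried. In the authors' deposited table the log2 fold change with LPS was 3.18 in cKO (adjusted p = 1.83e-16) and 5.12 in WT (adjusted p = 9.47e-08).

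Mmp14 (chr14:54431612-54445364, + strand) encodes the membrane-anchored collagenase MT1-MMP. It had rlog values of 10.98 and 11.28 in cKO LPS, 9.46 and 10.13 in cKO at 0 h, 10.54 and 10.83 in WT LPS, and 9.10 and 9.58 in WT at 0 h. In each genotype both LPS libraries lay above both 0 h libraries. It rose by 1.33 in cKO (SE 0.25, limma adjusted p = 0.00375) and by 1.35 in WT (SE 0.25, limma adjusted p = 0.00295). Mmp2 (chr8:92827291-92853420, + strand), the gelatinase gene whose product is activated by MMP14, had 10.74 and 10.85 in cKO LPS, 9.44 and 9.64 in cKO at 0 h, 10.55 and 10.63 in WT LPS, and 9.60 and 10.15 in WT at 0 h. It rose by 1.25 in cKO (SE 0.18, limma adjusted p = 0.000971) and by 0.71 in WT (SE 0.18, limma adjusted p = 0.0126), and the LPS and 0 h libraries did not overlap. The Mmp2 call in WT was lost without WT LPS replicate 2 (0.68, adjusted p = 0.0515) and without WT 0 h replicate 1 (0.44, adjusted p = 0.0668), under quantile normalization (0.30, adjusted p = 0.256) and without the filter on low values (adjusted p = 0.0611).

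Stromal cells also make MMP2 and MMP14, so a list of 9 fibroblast and stromal markers was checked. Of these, 2 passed the minimum (Pdgfrb and Postn), and Col1a1 had rlog values at or below 0 in each library. The summed level of the list on the log2 scale was 6.39 to 6.54 in cKO LPS, 5.16 to 5.38 in cKO at 0 h, 6.79 to 6.83 in WT LPS and 4.90 to 5.80 in WT at 0 h. It was higher after LPS in both genotypes, as Mmp2 and Mmp14 were. Pdgfrb was the highest gene of the list in each LPS library and carried most weight in the sum there. The part of this list in the Mmp2 and Mmp14 results was not tested. Pdgfrb, a receptor for platelet-derived growth factor, had 6.09 and 5.69 in cKO LPS, 3.10 and 3.64 in cKO at 0 h, 6.25 and 6.28 in WT LPS, and 3.77 and 3.07 in WT at 0 h. Postn, the gene of the matrix protein periostin, had 4.14 and 3.56 in cKO LPS, 4.36 and 4.46 in cKO at 0 h, 4.71 and 4.68 in WT LPS, and 3.11 and 5.25 in WT at 0 h. Pdgfrb was higher after LPS by 2.53 in cKO (limma adjusted p = 0.000305) and 2.85 in WT (limma adjusted p = 0.000125), and Postn differed by -0.56 in cKO (limma adjusted p = 0.478) and 0.51 in WT (limma adjusted p = 0.5). Fewer cells of a type and less RNA per cell cannot be told apart in these bulk libraries.

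Timp2 (chr11:118301069-118355740, - strand), the gene of the inhibitor that joins MMP14 to the MMP2 proenzyme, went in the opposite direction. It had 6.46 and 6.73 in cKO LPS, 7.85 and 7.98 in cKO at 0 h, 6.84 and 7.31 in WT LPS, and 8.19 and 8.15 in WT at 0 h. Each LPS library lay below each 0 h library. Timp2 fell by 1.32 in cKO (SE 0.19, limma adjusted p = 0.000879) and by 1.09 in WT (SE 0.19, limma adjusted p = 0.00184), and these calls held under the 15 alternatives. Mmp19 (chr10:128790910-128800824, + strand), the gene of a protease of basement membrane proteins, had 6.93 and 6.51 in cKO LPS, 7.72 and 7.41 in cKO at 0 h, 7.53 and 7.44 in WT LPS, and 8.12 and 8.57 in WT at 0 h. Mmp19 fell by 0.85 in cKO (SE 0.21, limma adjusted p = 0.0140) and by 0.86 in WT (SE 0.21, limma adjusted p = 0.0115), and the LPS and 0 h libraries of a genotype did not overlap.

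The Mmp19 calls were lost without cKO LPS replicate 2 (-0.64, adjusted p = 0.105) or cKO 0 h replicate 1 (-0.69, adjusted p = 0.0835) for cKO, and without WT 0 h replicate 2 (-0.63, adjusted p = 0.0807) for WT. Without the filter on low values they stood at adjusted p = 0.0656 in cKO and 0.0530 in WT. Mmp19 shares 789 exonic bases with Tmem198b on the opposite strand, and, the strand setting of the counting being unknown here, reads of the pair may be mixed. Tmem198b was also lower after LPS, by -1.01 in cKO (limma adjusted p = 0.0266) and -0.90 in WT (limma adjusted p = 0.0364), calls lost without the filter, without cKO LPS replicate 2 or cKO 0 h replicate 1 for cKO, and without WT LPS replicate 2 or WT 0 h replicate 1 or 2, or under quantile normalization, for WT (adjusted p up to 0.191).

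Timp1 (chrX:20870166-20874735, + strand), the gene of a secreted inhibitor of most soluble MMPs, lies within Syn1 on the opposite strand and shares 0 exonic bases with it. It had 5.91 and 4.63 in cKO LPS, 2.76 and 2.84 in cKO at 0 h, 4.86 and 4.88 in WT LPS, and 3.27 and 3.20 in WT at 0 h. The LPS and 0 h libraries did not overlap in either genotype, and the cKO LPS libraries enclosed both WT LPS libraries. It rose by 2.47 in cKO (SE 0.35, limma adjusted p = 0.000975) and by 1.63 in WT (SE 0.35, limma adjusted p = 0.00633), calls that held under the alternatives run. In the authors' deposited table the Timp1 log2 fold changes with LPS were 8.32 in cKO (adjusted p = 4.11e-06) and 3.09 in WT (adjusted p = 0.00354). The size of the cKO value is uncertain, because Timp1 was lowest in cKO at 0 h. Timp3 (chr10:86300372-86349506, + strand), the gene of a matrix-bound inhibitor that also blocks ADAM proteases, had 1.78 and 3.30 in cKO LPS, 1.45 and 1.85 in cKO at 0 h, 2.17 and 2.74 in WT LPS, and 1.60 and 2.13 in WT at 0 h. Its libraries overlapped in cKO but not in WT, and without the filter its adjusted p was 0.377 in cKO and 0.490 in WT. Timp3 shares 1733 exonic bases with Syn3 on the opposite strand, and Syn3 averaged 1.60.

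**Figure D2:**
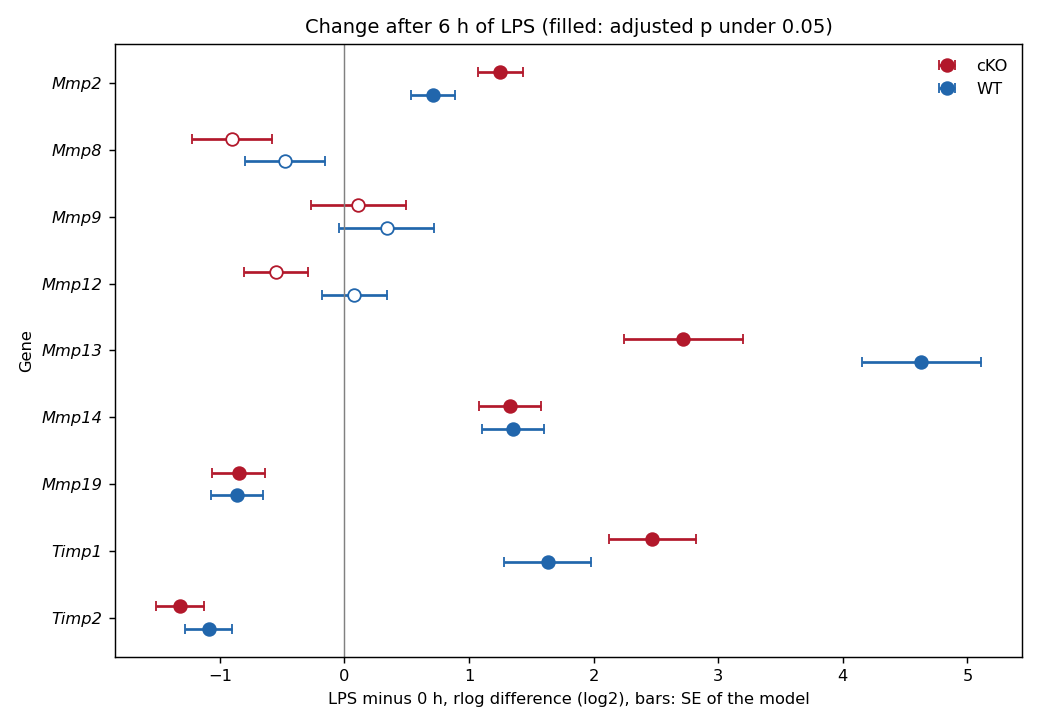
Difference in rlog (log2), LPS 6 h minus 0 h, for the 9 tested genes in cKO and WT macrophages, with bars showing the SE and filled points an adjusted p below 0.05. Mmp13 shows the largest differences, 2.72 in cKO and 4.63 in WT; Timp2 and Mmp19 are below 0 in both genotypes.

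Mmp8, Mmp9 and Mmp12 did not pass the threshold in either genotype. Mmp12 (chr9:7344381-7369499, + strand) had 15.23 and 14.80 in cKO LPS, 15.84 and 15.29 in cKO at 0 h, 15.39 and 15.69 in WT LPS, and 15.31 and 15.61 in WT at 0 h. The differences with LPS were -0.55 in cKO (SE 0.26, limma adjusted p = 0.135) and 0.08 in WT (SE 0.26, limma adjusted p = 0.830), and the LPS and 0 h libraries overlapped in WT but not in cKO. Mmp8 (chr9:7558456-7568485, + strand) had 13.00 and 12.44 in cKO LPS, 13.76 and 13.48 in cKO at 0 h, 12.80 and 12.05 in WT LPS, and 13.25 and 12.56 in WT at 0 h. Its differences were -0.90 in cKO (SE 0.32, limma adjusted p = 0.0546) and -0.48 in WT (SE 0.32, limma adjusted p = 0.257), and in cKO both LPS libraries lay below both 0 h libraries. The cKO difference passed under quantile normalization (-1.43, adjusted p = 0.00504) and in a fit on its own 4 libraries (adjusted p = 0.0181), and the WT difference under quantile normalization (-1.16, adjusted p = 0.0119). It also passed in cKO when any 1 of the 4 WT libraries was left out (adjusted p 0.0331 to 0.0445), and the authors' deposited table gave -0.95 in cKO (adjusted p = 0.000878).

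Mmp9 (chr2:164940780-164955850, + strand), the gelatinase gene of neutrophils and activated macrophages, was low. It had 4.04 and 4.86 in cKO LPS, 3.87 and 4.81 in cKO at 0 h, 5.46 and 4.98 in WT LPS, and 4.67 and 5.10 in WT at 0 h. The groups overlapped within each genotype, and the differences with LPS were 0.11 in cKO (SE 0.38, limma adjusted p = 0.844) and 0.34 in WT (SE 0.38, limma adjusted p = 0.509). Neutrophil markers were checked beside Mmp8 and Mmp9. Of 10 such genes, S100a8 and Camp passed the minimum, Retnlg was at 0 in every library and Ly6g had a mean of -2.02. The summed level of the list was 8.56 to 8.78 in cKO LPS, 7.97 to 8.06 in cKO at 0 h, 7.62 to 8.16 in WT LPS and 6.88 to 7.48 in WT at 0 h. S100a8, the highest gene of the list, carried most weight in the sum. It had 8.23 and 8.35 in cKO LPS, 7.76 and 7.84 in cKO at 0 h, 7.23 and 7.60 in WT LPS, and 6.50 and 7.04 in WT at 0 h. In cKO minus WT after LPS, S100a8 differed by 0.88 (limma adjusted p = 0.0541) and Camp by 0.83 (limma adjusted p = 0.281). The summed level was higher after LPS, while Mmp8 values were lower on average. The part of this list in the Mmp8 and Mmp9 results was not tested.

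The second question was what the loss of PTIP changed. After LPS, Mmp13 was lower in cKO, 1 of 9 tested genes called, against 3.97% of all genes tested in either direction and 2.46% lower (458 genes, 174 higher and 284 lower, or 115 higher and 120 lower under quantile normalization). The difference, cKO minus WT, was -3.19 (SE 0.48, limma adjusted p = 0.0170), which is 9.11-fold lower on the rlog scale. With 1 library left out it was -3.88 to -2.49. Group means were 8.57 ± 0.49 in cKO and 11.76 ± 0.99 in WT (SD, n = 2 each). The authors' deposited table gave a log2 fold change of -3.55 (adjusted p = 0.00022), the 1 call among the 10 genes, against 2.97% of the genes it tests. The direction was the same under 15 of 15 alternatives, but the call was lost without cKO LPS replicate 1 (-3.54, adjusted p = 0.0948), cKO LPS replicate 2 (-2.84, adjusted p = 0.158) or WT LPS replicate 1 (-2.49, adjusted p = 0.0724), and without the filter on low values (adjusted p = 0.100). Without either cKO LPS library no gene of the table was called, and without WT LPS replicate 1 there were 14.

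Some macrophage markers also differed between genotypes after LPS. The summed level (log2) of the 8 markers was 18.42 to 18.51 in cKO LPS, 18.37 to 18.71 in cKO at 0 h, 19.36 to 19.45 in WT LPS and 19.16 to 19.28 in WT at 0 h. Lyz2, the highest of the 8, carried most weight in this sum, with 18.16 and 18.20 in cKO LPS and 19.19 and 19.31 in WT LPS. Of the 8, 2 were called after LPS, both lower in cKO. Itgam, an integrin gene, had 9.19 and 8.74 in cKO LPS and 10.21 and 9.93 in WT LPS, a difference of -1.11 (SE 0.17, limma adjusted p = 0.0178). Mertk, the gene of a receptor for dying cells, had 8.46 and 8.56 in cKO LPS and 9.47 and 9.74 in WT LPS, a difference of -1.10 (SE 0.18, limma adjusted p = 0.0197). Both calls were lost without the filter and without cKO LPS replicate 1 or 2 or WT LPS replicate 1, and that of Mertk without WT LPS replicate 2 (adjusted p up to 0.158). The other markers were not called after LPS and went both ways. Spi1 (2.57, limma adjusted p = 0.109) and Cd68 (0.17) were higher in cKO. Lyz2 (-1.07, limma adjusted p = 0.0899), Adgre1 (-0.45), Fcgr1 (-0.45) and Csf1r (-0.04) were lower. The part of these markers in the Mmp13 result was not tested.

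The other 8 tested genes did not pass after LPS. Mmp19 was next by p, with 6.72 ± 0.30 in cKO and 7.49 ± 0.06 in WT (SD, n = 2 each) and a difference of -0.77 (SE 0.21, limma adjusted p = 0.0802); its groups did not overlap. Timp2 differed by -0.49 (limma adjusted p = 0.174), with 6.59 ± 0.19 in cKO and 7.08 ± 0.33 in WT (SD, n = 2 each). Mmp9 (-0.77), Mmp12 (-0.52), Mmp14 (0.44), Timp1 (0.40), Mmp8 (0.29) and Mmp2 (0.21) had adjusted p values of 0.282 to 0.643. The median difference of the 9 genes was -0.49, against -0.03 over all tested genes. Of the 9, 3 had a limma unadjusted p below 0.05, as had 2483 of all 11543 genes tested.

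At 0 h none of the 9 tested genes was called by limma, against 0.251% of all genes tested (29 genes, a count that moved when 1 library was left out). Of the 9, 2 had a limma unadjusted p below 0.05, as had 1256 of all 11543 genes tested. Mmp13 averaged 5.85 ± 0.28 in cKO and 7.13 ± 0.71 in WT (SD, n = 2 each), a difference of -1.28 (SE 0.48, limma unadjusted p = 0.0267 and adjusted p = 0.391). Its libraries did not overlap, and the authors' deposited table listed -1.61 (adjusted p = 0.03), the 1 call among the 10 genes, against 0.806% of the genes it tests. Mmp19 averaged 7.57 ± 0.22 in cKO and 8.34 ± 0.32 in WT (SD, n = 2 each), a difference of -0.78 (SE 0.21, limma unadjusted p = 0.00574 and adjusted p = 0.238). The cKO minus WT difference of Mmp19 was thus -0.77 after LPS and -0.78 at 0 h. The remaining 7 genes had limma adjusted p values of 0.461 to 0.936.

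Whether LPS acted differently in cKO and WT macrophages was tested by the interaction term. No gene was called by limma, 0% of all genes tested and 0 of these 9, while 751 genes, among them Mmp13 alone of the 9, had an unadjusted p below 0.05. For Mmp13 the LPS difference in cKO minus that in WT was -1.91 (SE 0.67, limma unadjusted p = 0.0212 and adjusted p = 0.701). With 1 library left out it was -2.61 to -1.21. For the other 8 genes the adjusted p was 0.764 to 0.997. The smallest interactions were those of Mmp14 (-0.01) and Mmp19 (0.01).

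**Figure D3:**
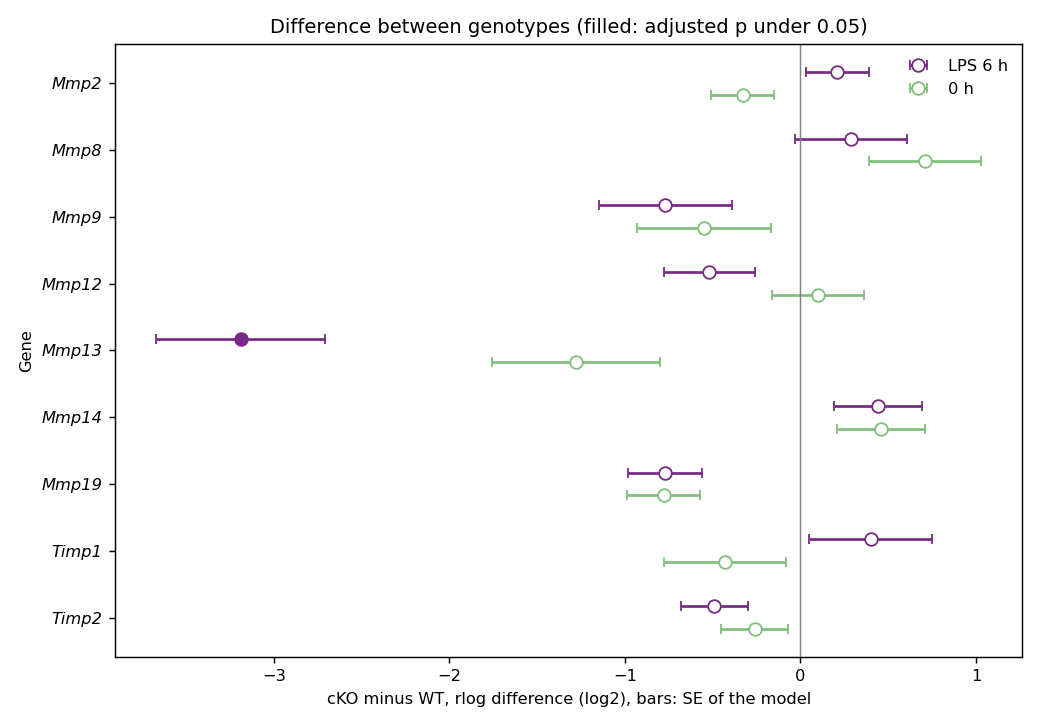
Difference in rlog (log2), cKO minus WT, for the 9 tested genes after LPS and at 0 h, with bars showing the SE and filled points an adjusted p below 0.05. The filled point is Mmp13 after LPS at -3.19; Mmp19 lies at -0.77 after LPS and -0.78 at 0 h.

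Within a library, the level of a protease can be set against that of its inhibitor. These pairs were chosen after their values were seen and are given without a test. Mmp14 minus Timp2 was 4.54 ± 0.02 in cKO LPS, 1.89 ± 0.39 in cKO at 0 h, 3.6 ± 0.12 in WT LPS and 1.17 ± 0.36 in WT at 0 h (SD, n = 2 each), in rlog units. Mmp2 minus Timp2 was 4.20 ± 0.11, 1.63 ± 0.06, 3.51 ± 0.28 and 1.70 ± 0.41 in the same order of groups (SD, n = 2 each). Both differences were larger in each LPS library than in each 0 h library of the genotype. Mmp13 minus Timp1 was 3.30 ± 0.40 in cKO LPS and 3.05 ± 0.35 in cKO at 0 h, with overlapping libraries, and 6.89 ± 1.0 in WT LPS and 3.90 ± 0.66 in WT at 0 h, without overlap (SD, n = 2 each). Timp1 is low and its rlog differences are shrunk: with LPS the authors' deposited table gives log2 fold changes of 3.18 for Mmp13 and 8.32 for Timp1 in cKO, and of 5.12 for Mmp13 and 3.09 for Timp1 in WT. By that table the Mmp13 change in cKO was smaller than the Timp1 change, where the rlog difference was nearly level. The 8.32 starts from rlog values of 2.76 and 2.84 in cKO at 0 h, so its size is uncertain. For Timp1 in cKO minus WT at 0 h the deposited value was -4.41, where the rlog difference was -0.43 (limma adjusted p = 0.723). Which of Mmp13 and Timp1 changed more in cKO is therefore not settled.

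**Figure D4:**
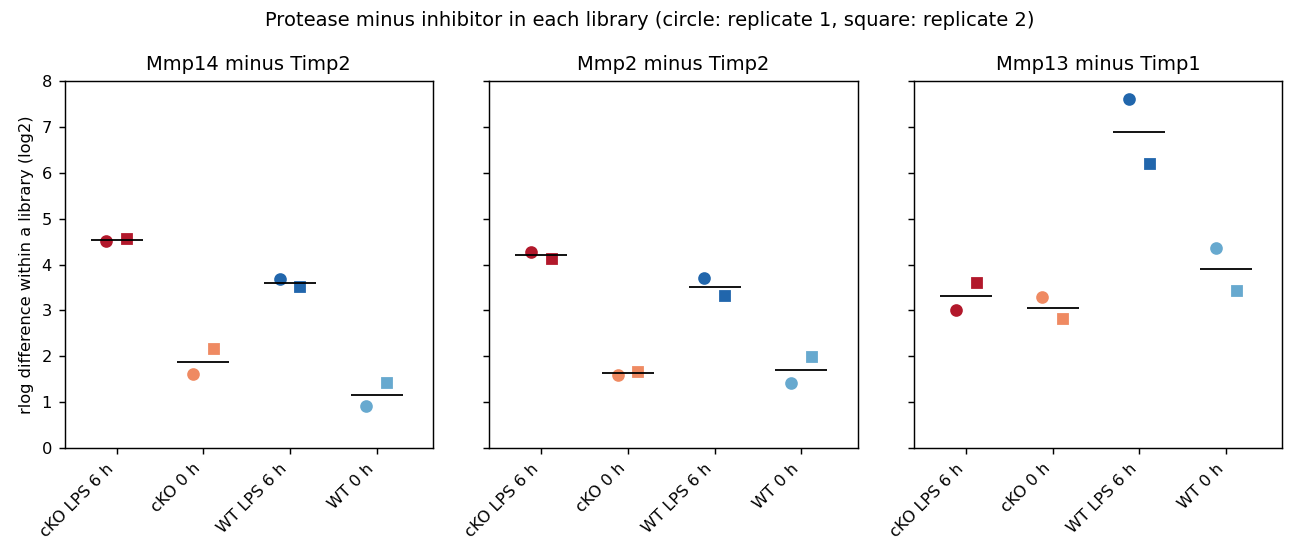
Within-library difference in rlog (log2) of Mmp14 minus Timp2, Mmp2 minus Timp2 and Mmp13 minus Timp1, in the order cKO LPS, cKO 0 h, WT LPS and WT 0 h. Points are libraries and lines are group means; Mmp13 minus Timp1 averages 6.89 in WT LPS and 3.05 to 3.90 in the other 3 groups.

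Mmp13, Mmp12 and Mmp8 lie in a cluster of MMP genes on chromosome 9. The 9 genes taken for it, by their annotation as protein-coding, run from Mmp13 through Mmp12, Mmp1b, Mmp3, Mmp10, Mmp8, Mmp27 and Mmp20 to Mmp7. Mmp1a was not among them and was at 0 in every library. The gap between Mmp13 and Mmp12 is 61.0 kb and that between Mmp8 and Mmp27 is 2.9 kb. Of the 9 genes, 5 passed the minimum (Mmp13, Mmp12, Mmp3, Mmp8 and Mmp27). Mmp27 had 4.74 and 4.55 in cKO LPS, 5.77 and 5.82 in cKO at 0 h, 4.39 and 3.47 in WT LPS, and 5.41 and 4.66 in WT at 0 h. Within each genotype its LPS and 0 h libraries did not overlap, and it fell by 1.16 in cKO (limma adjusted p = 0.0267) and by 1.11 in WT (limma adjusted p = 0.0279). These calls were lost without any 1 of the 4 cKO libraries for cKO (adjusted p 0.0783 to 0.127), without WT LPS replicate 2 (-0.65) or WT 0 h replicate 1 (-0.73) for WT (adjusted p 0.157 and 0.175), with the WT libraries alone (adjusted p = 0.0621), and without the filter (adjusted p 0.119 in cKO and 0.118 in WT). Mmp3 was at 6.69 in cKO LPS replicate 2 and between 1.61 and 4.06 in the other 7 libraries. In cKO minus WT after LPS, Mmp12 differed by -0.52 (limma adjusted p = 0.287) and Mmp8 by 0.29 (limma adjusted p = 0.643), where Mmp13 differed by -3.19.

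**Figure D5:**
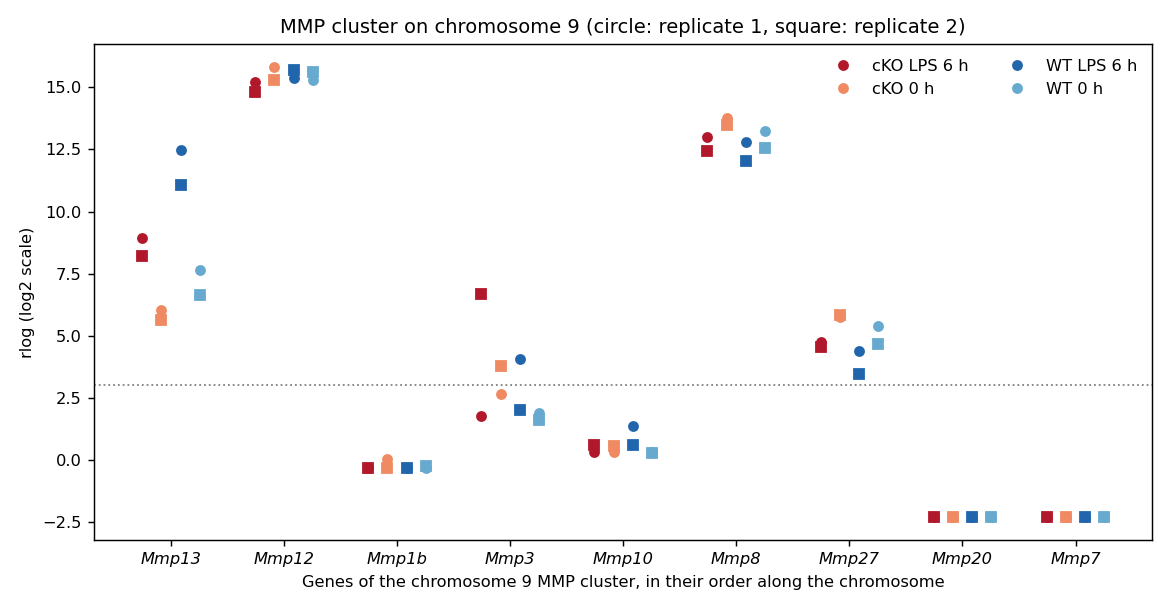
rlog values (log2) of the 9 MMP genes taken for the chromosome 9 cluster (without Mmp1a) in their order along the chromosome, for cKO LPS, cKO 0 h, WT LPS and WT 0 h libraries. The dotted line is the minimum mean rlog of 3; Mmp12 and Mmp8 lie highest, and Mmp20 and Mmp7 are near -2.31 in each library.

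Other genes of the system were counted from lists drawn up with earlier results of these data known. Of 11 genes of the plasminogen system and the proprotein convertases, which activate MMP proenzymes, 7 were tested. With LPS, 5 of the 7 rose in cKO (median 1.68 over the list) and 6 of the 7 in WT (median 1.30), and none fell. Of all 11543 tested genes, 2260 were called higher in cKO and 2598 in WT. In either direction, 37.0% of all tested genes were called in cKO and 42.2% in WT. Furin, the convertase that activates MMP14, had 11.39 and 10.90 in cKO LPS and 8.79 and 8.83 in cKO at 0 h, against 11.71 and 11.33 in WT LPS and 8.96 and 8.87 in WT at 0 h. It rose by 2.34 in cKO (SE 0.19, limma adjusted p = 5.69e-05) and by 2.60 in WT (SE 0.19, limma adjusted p = 2.5e-05). Serpinb2, an inhibitor of plasminogen activators, rose by 5.27 in cKO (limma adjusted p = 0.000786) and by 5.08 in WT (limma adjusted p = 0.000721).

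Of the other MMP genes with Timp4 and Reck, 3 of 18 were tested, and 1 rose and 1 fell in each genotype with LPS. The counts of the 3 lists given here stand beside 37.0% of all tested genes called in cKO and 42.2% in WT. Mmp25, a membrane-anchored MMP of leukocytes, rose by 1.75 in cKO (limma adjusted p = 0.00386) and by 1.70 in WT (limma adjusted p = 0.00362), and Mmp27 fell. Of 18 ADAM and ADAMTS genes, 8 were tested, with 4 higher and 2 lower in each genotype. Adamts4, an aggrecanase, rose by 3.32 in cKO (limma adjusted p = 1.8e-05) and by 3.40 in WT (limma adjusted p = 1.04e-05). Adam10, a shedding protease, fell by 0.52 in cKO (limma adjusted p = 0.0432) and by 0.79 in WT (limma adjusted p = 0.00608). The cKO call was lost under some alternatives, among them no filter on low values (adjusted p = 0.139). Of 15 matrix substrate genes, 5 were tested, with 1 higher in cKO, and 2 higher and 1 lower in WT. Vcan, the gene of the proteoglycan versican, rose by 4.86 in cKO (limma adjusted p = 2.79e-05) and by 5.35 in WT (limma adjusted p = 1.47e-05), and Tgfbi fell by 1.37 in WT (limma adjusted p = 0.00384).

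Between genotypes, 3 genes of these lists passed after LPS, each lower in cKO. They were Thbs1 (-2.24, SE 0.37, limma adjusted p = 0.0216), whose product thrombospondin-1 binds MMP2, and the lysosomal proteases Ctsl (-1.16, SE 0.21, limma adjusted p = 0.0273) and Ctsh (-0.81, SE 0.15, limma adjusted p = 0.0315). Thbs1 was 1 of 9 tested binding partners, and Ctsl and Ctsh were 2 of 8 tested cathepsins and elastases, against 3.97% of all tested genes called in either direction and 2.46% lower. Each of these calls was lost without cKO LPS replicate 1 or 2 or WT LPS replicate 1, and without the filter, and Ctsl also without WT LPS replicate 2, with adjusted p up to 0.182 for Thbs1, 0.214 for Ctsl and 0.242 for Ctsh. Quantile normalization also ended the calls of Ctsl (-0.85, adjusted p = 0.0951) and Ctsh (-0.46, adjusted p = 0.132). At 0 h these 3 genes were also lower in cKO but not called. Thbs1 differed there by -2.04 (limma adjusted p = 0.0978), Ctsl by -0.68 (limma adjusted p = 0.295) and Ctsh by -0.61 (limma adjusted p = 0.217). With LPS, the gene Cd44, whose product holds MMP9 at the cell surface, rose by 1.20 in cKO (limma adjusted p = 0.00041) and by 1.36 in WT (limma adjusted p = 0.000159).

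The AP-1 subunit genes, whose dimers bind the motif marked in the Mmp13 window, moved in both directions. With LPS, 3 of 8 tested rose and 2 fell in cKO, and 3 rose and 4 fell in WT, where 37.0% of all tested genes were called in cKO and 42.2% in WT. Batf rose by 1.69 in cKO (limma adjusted p = 0.00012) and by 1.95 in WT (limma adjusted p = 4.24e-05), and Jun fell by 1.41 in WT (limma adjusted p = 0.0072, or 0.0563 without the filter). Between genotypes, Jun had 8.84 and 8.99 in cKO LPS, 9.60 and 9.15 in cKO at 0 h, 10.56 and 9.80 in WT LPS, and 12 and 11.18 in WT at 0 h. The cKO libraries lay below the WT libraries at each time, and the difference at 0 h was -2.22 (SE 0.31, limma adjusted p = 0.0389), the 1 call among the 8, against 0.251% of all tested genes. After LPS none of the 8 was called by limma, and 6 had an unadjusted p below 0.05, as had 2483 of all 11543 genes tested. The median difference of the 8 was -0.73, against -0.03 over all tested genes. The Jun call at 0 h was lost without cKO LPS replicate 1 or 2, cKO 0 h replicate 2 or WT 0 h replicate 1 (adjusted p up to 0.202), and under 4 other settings (no filter, the stricter filter, no variance trend and the comparison's own 4 libraries). The part of Jun in the level of Mmp13 was not tested.

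For each tested gene, the closest patterns over the 8 libraries were found by Pearson's r among tested genes with an SD of at least 0.5, as a description of libraries that share groups and processing. Mmp13 was closest to Stk38l (0.992), Hist3h2a (0.991) and Inpp5b (0.991). Mmp8 was closest to Tal2 (0.955), Cdca3 (0.948) and its neighbour Mmp27 (0.942). Mmp14 was closest to Bckdhb (0.989), and Mmp2 to Agtrap (0.984). Mmp9 was closest to Marco (0.947), a scavenger receptor gene of macrophages. Timp2 was closest to Syce2 (0.992), Timp1 to Zfp213 (0.984) and Mmp19 to Ahrr (0.975), whose product represses the aryl hydrocarbon receptor. Mmp12, which varied least, reached 0.822 with Fbxo32.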

How the data were processed

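Poly(A) RNA was captured on oligo-dT beads, copied with random primers and amplified for 15 PCR cycles, per the labels' protocols. HISAT2 2.1.0, featureCounts, DESeq2, CASAVA and GRCm38 appear, without roles, in the submitters' processing notes; the annotation and strand setting are not given there. The authors deposited rlog values on a log2 scale for 8 libraries, and, in the same table, their own log2 fold changes with p-values and adjusted p-values for each comparison. Counts were not used here.

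The 11543 of 55226 genes whose mean rlog reached 3 were fitted with limma 3.58.1 in R 4.3.3, with a term per group, a variance trend and Benjamini-Hochberg adjustment over all tested genes, for 5 comparisons (LPS in each genotype, genotype at each time, and the interaction). The residual degrees of freedom were 4. The script was tested on simulated data. Libraries of a group correlated at 0.987 to 0.992 over genes. Coordinates and exon lengths are from GENCODE M21 (GRCm38). Genes named are the 10 chosen, Paxip1, up to 2 of the largest rises and falls per list and comparison, and the 3 closest patterns; a few of these are printed, and Itgam, Mertk, Pdgfrb, Postn, Tmem198b, Syn3 and the chromosome 9 neighbours were added after values were seen. The genes and lists were chosen with earlier results of these data known. Alternatives were other filters, median centring, quantile normalization, no variance trend, a replicate block, the comparison's own 4 libraries, and leaving out each library. Extending them to listed genes, Paxip1, Itgam, Mertk, Pdgfrb and Tmem198b was chosen after seeing the data.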

Additional observations from a re-analysis of the deposited data

How the results depend on the processing

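Of 45 gene-level differences among the 9 tested genes, 13 were called, 13 kept their direction under every alternative run and 9 kept their call under every alternative run; of 44 called differences of listed genes, Paxip1, Itgam, Mertk, Pdgfrb and Tmem198b, 44 kept their direction and 20 their call. Under quantile normalization Mmp12 with LPS in WT was -0.50, Mmp12 in cKO minus WT after LPS 0.03 and the Mmp14 interaction 0.06, each with the sign turned. With 1 library left out, signs also turned for Mmp9 with LPS in cKO (-0.36 to 0.58), Mmp12 with LPS in WT (-0.07 to 0.23), Mmp12 in cKO minus WT at 0 h (-0.17 to 0.38), Mmp8 (-0.08 to 0.67) and Timp1 (-0.23 to 1.04) in cKO minus WT after LPS, and the interactions of Mmp9 (-0.69 to 0.24), Mmp14 (-0.35 to 0.32), Mmp19 (-0.22 to 0.23) and Timp2 (-0.46 to 0.01). The number of all genes called in cKO against WT after LPS was 458, and it was 208 without the filter on low values, 235 under quantile normalization, 301 with no variance trend and 0 to 582 with 1 library left out. At 0 h it was 29, and it was 114 without the filter, 9 with no variance trend, 0 with the 4 libraries alone and 2 to 128 with 1 library left out. With LPS in cKO it was 2684 to 4468 with 1 library left out, and the interaction gave 10 without the filter. Of the 9 genes, the number called in cKO against WT after LPS was 1, and it was 0 without the filter and 0 to 1 with 1 library left out. The cause of these changes was not tested.

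With a replicate block, 804 genes were called in cKO against WT after LPS and 72 at 0 h, Mmp13 stood at adjusted p = 0.00186 after LPS and 0.0585 at 0 h, and Mmp8 with LPS was called in cKO (adjusted p = 0.00257) and WT (adjusted p = 0.0343). This block tied same-numbered libraries across the genotypes, and a pairing within each genotype was not fitted. Over 11543 genes, deviations of same-numbered libraries correlated at 0.31 (cKO LPS and cKO 0 h), 0.22 (WT LPS and WT 0 h), 0.20 (cKO LPS and WT LPS) and -0.04 (cKO 0 h and WT 0 h). The titles number libraries within a genotype, but no label says that a number is shared by a mouse or day. The pairing was therefore not used in the main fit. With 2 libraries a group, calls rest on the shared spread, and where a library is left out the lone library is assumed to vary like the others. Without counts no counting error can be given, and rlog shrinkage holds down differences of low genes such as Timp1, Timp3 and Mmp9.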

Other observations

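Markers of other cell types were summed in each library, without a test. A list of 3 endothelial markers had a summed level (log2) of 8.76 to 8.91 in cKO LPS, 5.45 to 5.48 in cKO at 0 h, 9.26 to 9.33 in WT LPS and 5.69 to 5.97 in WT at 0 h. Kdr, the VEGF receptor gene, was the 1 marker of this list that passed the minimum, and Tek was at 0 in each library. A list of 6 osteoclast markers, the cell type in which MMP9 and MMP14 are abundant in bone, had a summed level of 11.68 to 11.72 in cKO LPS, 11.40 to 11.57 in cKO at 0 h, 11.73 to 12.01 in WT LPS and 11.45 to 11.95 in WT at 0 h, and 3 of its genes (Acp5, Ctsk and Dcstamp) passed. The summed levels of 4 lymphocyte markers were 1.96 to 2.26 across the 8 libraries, and none of them passed. Dendritic cell markers (3 genes) had summed levels of 4.96 to 5.08 in cKO LPS and 3.95 to 4.50 in cKO at 0 h. In WT these were 5.14 to 5.66 after LPS and 4.38 to 4.45 at 0 h. Mast cell markers (3 genes) had summed levels of 4.49 to 4.67 in cKO LPS and 4.15 to 4.77 in cKO at 0 h. Their WT levels were 4.53 to 5.19 after LPS and 3.59 to 4.22 at 0 h.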
